A study of Mus musculus with 8 samples.

Results

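The acute phase proteins examined here are 10 secreted proteins of the liver: serum amyloid A (Saa1, Saa2, Saa3 and Saa4), haptoglobin (Hp), hemopexin (Hpx), orosomucoid 2 (Orm2), inter-alpha-trypsin inhibitor heavy chain 4 (Itih4), lipocalin 2 (Lcn2) and hepcidin (Hamp). They were chosen by gene symbol, and all 10, each protein coding, were found among the 41388 features of the files. RNA was sequenced from whole liver of 8 db/db mice, which lack a working leptin receptor and become obese and diabetic. Adenovirus given through the tail vein carried green fluorescent protein in 4 mice (AdGFP) and NAMPT, the enzyme that salvages nicotinamide into NAD, in the other 4 (AdNAMPT). Both groups are littermates of the strain labelled C57B/6J, were allocated at random at 5 weeks of age and were 10 weeks old at sampling. The study describes its purchased mice as male. The db/db genotype comes from the titles, since the genotype label of the AdGFP mice reads control. The series text gives 4 to 5 weeks of overexpression, whereas the study's methods describe a shorter interval after adenovirus. Every mouse received an adenovirus and none is lean or uninjected, so neither db/db nor the vector itself can be told apart from the baseline.

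Hepatocytes make most acute phase proteins, and in mice serum amyloid A is among the most inducible. Interleukin 6 acting through gp130 and STAT3, together with interleukin 1 acting through NF-kB and C/EBP factors, drives this response, while hepcidin is additionally driven by iron through bone morphogenetic protein (BMP) and SMAD signalling. The proteins carry cholesterol on lipoproteins (serum amyloid A), bind free haemoglobin and haem (haptoglobin and hemopexin), or withhold iron from microbes and plasma (lipocalin 2 and hepcidin).

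Libraries held 12006713 to 19879814 counts, and levels are given as CPM, counts scaled to the total of the library. Hepatocyte markers were plain in all 8 libraries, with all 10 on the list above 3 counts in each. Nampt spanned 102 to 153 CPM in AdGFP and 120.5 to 178 CPM in AdNAMPT, so the groups overlapped in the transferred gene (log2 fold change 0.08, SE 0.15, limma adjusted p 0.915), and vector and endogenous transcripts were not separated. The directions below therefore rest on the labels. Gm42418, a transcript annotated over ribosomal RNA repeat sequence, lay at 9962 to 22477 CPM in AdGFP and 2001 to 2330 CPM in AdNAMPT. What part this library difference has in the results was not tested.

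Upstream sequences are shown for Saa1 and Saa2 and for Hamp and its neighbour, near-identical pairs that varied widely between mice, and for Saa4, a serum amyloid A gene that varied little, beside them. RefSeq (GRCm38.p6) gave a window for 9 of the 10 genes. Each line holds the 250 bases before the RefSeq transcript start, read 5′ to 3′ on the strand of the gene. Saa1 is at chr7:46742981-46743230 (minus strand), Saa2 at chr7:46751583-46751832 (plus strand), Saa4 at chr7:46732604-46732853 (minus strand), Hamp at chr7:30944030-30944279 (minus strand) and Hamp2, a second hepcidin gene that is not among the 10, at chr7:30924182-30924431 (minus strand). Capitals mark a match to any of 4 motifs searched on both strands.
Saa1: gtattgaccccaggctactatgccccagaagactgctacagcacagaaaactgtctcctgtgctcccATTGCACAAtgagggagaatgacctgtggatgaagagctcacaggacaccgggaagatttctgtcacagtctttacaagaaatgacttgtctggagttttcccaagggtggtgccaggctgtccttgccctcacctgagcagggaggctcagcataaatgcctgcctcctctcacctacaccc
Saa2: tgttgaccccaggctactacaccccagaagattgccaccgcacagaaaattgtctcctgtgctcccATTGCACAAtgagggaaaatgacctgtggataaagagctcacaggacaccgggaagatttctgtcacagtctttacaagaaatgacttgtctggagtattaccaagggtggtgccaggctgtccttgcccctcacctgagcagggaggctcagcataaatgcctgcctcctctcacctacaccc
Saa4: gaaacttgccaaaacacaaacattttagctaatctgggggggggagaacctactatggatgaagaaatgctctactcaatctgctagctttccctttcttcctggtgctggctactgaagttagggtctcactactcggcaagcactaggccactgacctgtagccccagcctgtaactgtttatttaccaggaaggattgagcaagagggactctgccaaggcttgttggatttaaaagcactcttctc
Hamp: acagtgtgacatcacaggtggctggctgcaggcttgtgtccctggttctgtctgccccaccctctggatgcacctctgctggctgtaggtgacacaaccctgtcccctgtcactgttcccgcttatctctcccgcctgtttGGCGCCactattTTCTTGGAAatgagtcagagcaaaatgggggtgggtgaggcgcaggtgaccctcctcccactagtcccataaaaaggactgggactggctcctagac
Hamp2: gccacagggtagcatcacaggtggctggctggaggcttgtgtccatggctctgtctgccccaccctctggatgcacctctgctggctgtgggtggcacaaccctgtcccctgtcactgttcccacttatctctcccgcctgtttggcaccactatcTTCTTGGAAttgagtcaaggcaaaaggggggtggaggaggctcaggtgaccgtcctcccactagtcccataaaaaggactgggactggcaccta

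The C/EBP motif, TTNNGNAAT, stood 183 to 175 bases before the start in Saa1 and 184 to 176 bases before it in Saa2. It was present in 10.2% of 32851 windows of this length. Orm2 also carried it, 109 to 101 bases before the start. The STAT motif, TTCNNNGAA (7.02% of windows), stood at 97 to 89 bases in Hamp, 94 to 86 in Hamp2 and 51 to 43 in Itih4. GGCGCC, the core of the BMP-responsive element (9.59% of windows), stood at 109 to 104 bases in Hamp and was not found in the Hamp2 window. The NF-kB motif was searched only as GGG and TTTCC separated by 2 bases of any kind (1.41% of windows). This form was in none of the 9 windows, and other forms were not searched. Saa4 held none of the 4 motifs as searched. No 2 of these motif matches overlapped. Over the aligned windows, Saa1 and Saa2 were 94.8% identical and Hamp and Hamp2 89.7% identical, against 42.6% for Saa1 and Saa4. These are matches of letters and say nothing of binding in these livers.

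None of the 10 genes passed the test for a difference between AdNAMPT and AdGFP (limma adjusted p at most 0.05, adjusted over 12270 tested genes), where 0.277% of all tested genes did (0.0163% higher and 0.261% lower). At an unadjusted p under 0.05, limma gave 2 of the 10, Saa4 and Orm2, both lower in AdNAMPT, beside 9.69% of all tested genes in either direction and 5.04% lower. edgeR's quasi-likelihood test also gave 2 of 10 unadjusted (8% of all tested genes) and the DESeq2 Wald test 3 (6.85%), and neither called any after adjustment (0.269% and 0.611% of all tested genes). In none of the 10 were the groups separated without overlap, beside 4.79% of tested genes. By estimate, 3 genes were higher and 7 lower, with a median log2 fold change of -0.18 beside 0.0015 over all tested genes. All 10 passed the filter on low counts. In bulk liver, fewer cells of a type and less RNA per cell cannot be told apart.

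**Figure D1:**
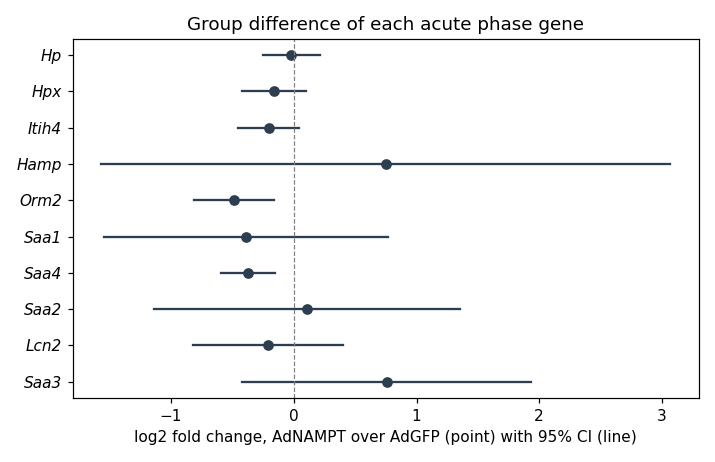
Estimated log2 fold change, AdNAMPT over AdGFP, for each of the 10 genes (point) with its 95% confidence interval (line), from limma with 4 mice per group. Saa4 (-0.37) and Orm2 (-0.49) have intervals below 0 before adjustment over all genes, while Hamp has the widest interval, from -1.57 to 3.07.

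Because levels of different genes can be ranked only per length, RPKM, which is CPM divided by the exonic length in kilobases, was compared. Averaged over the 8 livers, Hp (2454 RPKM) and Hpx (2205 RPKM) stood far above the rest. Itih4 (368 RPKM), Hamp (291 RPKM), Orm2 (177 RPKM), Saa1 (176 RPKM) and Saa4 (108 RPKM) followed. Saa2 averaged 73.7 RPKM, Lcn2 14.7 RPKM and Saa3 9.15 RPKM. Of neighbours in this order, Hpx and Itih4 had ranges that did not overlap, at 1843 to 2693 RPKM and 298 to 428 RPKM. All other neighbours overlapped across mice. The 10 genes took between 0.796% and 0.988% of the counts of a library, of which Hp and Hpx alone took 0.595% to 0.756%.

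**Figure D2:**
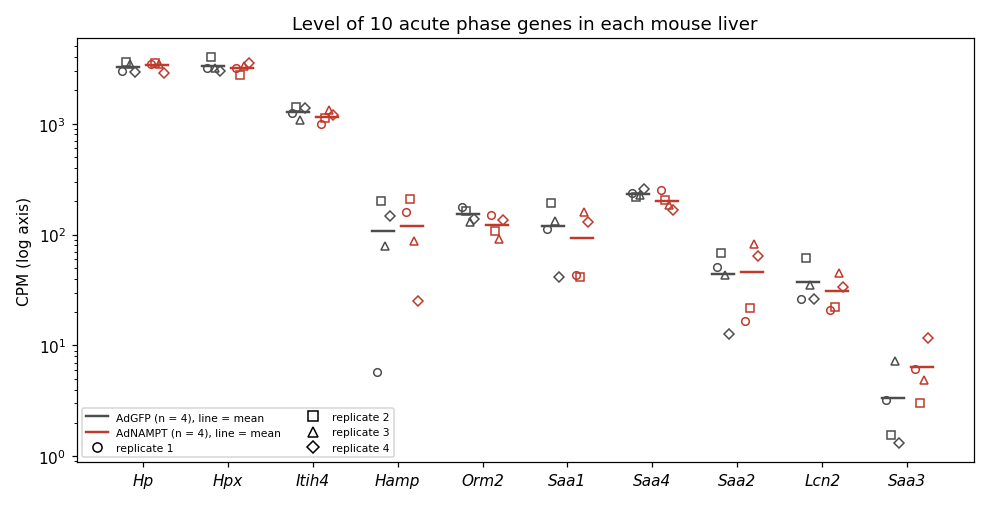
CPM of each gene in each liver on a log axis, ordered by mean RPKM, with grey symbols for AdGFP, red for AdNAMPT, a symbol shape per replicate number and a line at each group mean (n = 4). The groups overlap for all 10 genes; Hp, Hpx, Itih4 and Saa4 are tightly grouped, whereas Hamp spans 5.81 to 208 CPM.

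Serum amyloid A genes lie together on chromosome 7 (Saa3, ENSMUSG00000040026, 46711998 to 46715676, Saa4, ENSMUSG00000040017, 46728017 to 46732543, Saa1, ENSMUSG00000074115, 46740501 to 46742980 and Saa2, ENSMUSG00000057465, 46751833 to 46754314, GRCm38). Saa1 and Saa2 encode the major acute phase apolipoproteins of high-density lipoprotein. Saa1 levels were 112, 191, 133 and 41.1 CPM in AdGFP livers, listed here and below in the order of replicates 1 to 4, and 43.3, 41.5, 161 and 130.3 CPM in AdNAMPT livers. In 3 mice levels were between 41.1 and 43.3 CPM, 1 in AdGFP and 2 in AdNAMPT, and the other 5 were at 112 CPM or more, with none between. Means were 119 ± 61.8 and 93.9 ± 60.7 CPM (SD, n = 4 each). The fold, AdNAMPT over AdGFP, was 0.763 (95% confidence interval 0.342 to 1.70; limma adjusted p 0.859), and without AdNAMPT replicate 2 the log2 estimate turned from -0.39 to 0.27.

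Saa2 was at 50.9, 68.3, 43.3 and 12.8 CPM in AdGFP and at 16.7, 21.9, 82.0 and 63.8 CPM in AdNAMPT. The 3 mice that were low for Saa1 were also the 3 lowest for Saa2. The fold was 1.07 (0.453 to 2.55; limma adjusted p 0.974). Saa2 reads were 0.311 to 0.453 of Saa1 reads in AdGFP and 0.385 to 0.526 in AdNAMPT. Of the 50-base windows of the Saa1 transcript, 14.8% also occur in another gene, most often Saa2. Reads of that kind are left out of unique counts, so the split between Saa1 and Saa2 is less certain than their shared pattern.

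Saa3, which is made by macrophages and adipocytes as well as by liver, was the lowest of the 10. It was at 3.21, 1.55, 7.23 and 1.32 CPM in AdGFP and at 6.08, 3.0, 4.88 and 11.6 CPM in AdNAMPT, from 18 to 197 reads. Its estimate was higher in AdNAMPT, but the groups overlapped (fold 1.69, 0.747 to 3.83; limma adjusted p 0.699). The summed macrophage markers, all 12 above 3 counts in every library, were at 358 to 445 CPM in AdGFP and 272 to 449 CPM in AdNAMPT. Their part in the Saa3 values was not tested.

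Saa4, the constitutive form, was far steadier. It was at 235, 216, 228 and 257 CPM in AdGFP and at 255, 203, 184 and 167 CPM in AdNAMPT. In AdNAMPT, 3 mice were below every AdGFP mouse, and AdNAMPT replicate 1 was within the AdGFP range. Means were 234 ± 17.2 and 202 ± 38.1 CPM, with a log2 fold change of -0.37 (SE 0.10; 95% confidence interval -0.59 to -0.16). The unadjusted limma p was 0.0030 and the adjusted p 0.290. AdNAMPT replicate 1 had the lowest sample weight, 0.440. Without sample weights the unadjusted limma p was 0.019 and the adjusted p 0.580. An exact two-sided permutation of the group labels gave p 0.0857, where the smallest possible is 0.0286.

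Orm2 (ENSMUSG00000061540, chromosome 4, 63362449 to 63365878) encodes an alpha-1-acid glycoprotein, a plasma carrier of small lipophilic molecules. It was at 177, 163, 130.0 and 139 CPM in AdGFP and at 150.0, 108, 90.9 and 136 CPM in AdNAMPT. The 2 lowest mice were AdNAMPT and the 2 highest AdGFP, with the others interleaved. Means were 152 ± 21.7 and 121 ± 26.6 CPM, and the log2 fold change was -0.49 (SE 0.15; -0.81 to -0.16; unadjusted p 0.0069, limma adjusted p 0.371; exact permutation p 0.0571). Its neighbour Orm1 had a log2 fold change of -0.09 (adjusted p 0.861). Of the 50-base windows of Orm2, 22.7% occur in another gene, most often Orm1, so reads of the pair are partly lost to unique counting.

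Itih4 (ENSMUSG00000021922, chromosome 14, 30886476 to 30901981) encodes a liver glycoprotein related to the chains that bind hyaluronan. It was at 1257, 1419, 1072 and 1388 CPM in AdGFP and at 989.5, 1134, 1326 and 1186 CPM in AdNAMPT. The ranges overlapped, with a log2 fold change of -0.21 (SE 0.11; limma adjusted p 0.613).

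Haptoglobin and hemopexin, the scavengers of haemoglobin and haem, were the most abundant of the 10. Hp (ENSMUSG00000031722, chromosome 8, 109575130 to 109579172) was at 3003, 3579, 3451 and 2932 CPM in AdGFP and at 3466, 3561, 3487 and 2884 CPM in AdNAMPT. Its highest level was 1.24 times its lowest, and 3 of the AdNAMPT mice lay within 3466 to 3561 CPM. The fold was 0.987 with an interval of 0.839 to 1.16 (limma adjusted p 0.974).

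Hpx (ENSMUSG00000030895, chromosome 7, 105591613 to 105600116) was at 3181, 3979.6, 3177 and 3014 CPM in AdGFP and at 3175, 2725, 3288 and 3530.3 CPM in AdNAMPT. The highest liver was AdGFP replicate 2 and the lowest AdNAMPT replicate 2. The fold was 0.894 (0.747 to 1.07; limma adjusted p 0.708). The same AdGFP liver was also the highest of all 8 for Hp, Itih4, Saa1 and Lcn2.

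Lcn2 (ENSMUSG00000026822, chromosome 2, 32384633 to 32387797) encodes a siderophore-binding protein of hepatocytes and neutrophils. It was at 26.5, 61.1, 34.9 and 26.0 CPM in AdGFP and at 21.1, 22.4, 45.3 and 33.8 CPM in AdNAMPT. The 4 highest livers, 2 of each group, were those with the 4 highest Saa1 levels. The fold between groups was 0.863 (0.564 to 1.32; limma adjusted p 0.856), and without AdNAMPT replicate 2 the log2 estimate turned from -0.21 to 0.093. Of 12 neutrophil markers, 9 were at 0 in at least 1 library, among them Mpo, Elane and Ly6g, and the summed list was at 3.96 to 7.75 CPM in AdGFP and 3.75 to 8.90 CPM in AdNAMPT. The part of neutrophils in the Lcn2 values was not tested.

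Hamp (ENSMUSG00000050440, chromosome 7, 30942371 to 30944017) encodes hepcidin, the hormone that closes the iron exporter ferroportin. It was at 5.81, 201, 78.2 and 147 CPM in AdGFP and at 159, 208, 86.9 and 25.1 CPM in AdNAMPT. The lowest liver was AdGFP replicate 1, with 85 reads against 426 to 3041 in the other 7. The group means were 108 ± 84.7 and 119.7 ± 80.2 CPM. The estimated fold of 1.68 had an interval from 0.337 to 8.38 (limma adjusted p 0.865), and without that liver the log2 fold change turned from 0.75 to -0.52.

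Hamp2, the neighbouring hepcidin gene, was at 4.99, 188, 142 and 279 CPM in AdGFP and at 59.5, 346, 187 and 77.7 CPM in AdNAMPT. The liver lowest for Hamp was also lowest for Hamp2, and the liver highest for Hamp was highest for Hamp2. Hamp2 reads per Hamp read nevertheless ran from 0.374 in AdNAMPT replicate 1 to 3.09 in AdNAMPT replicate 4. Of the 50-base windows of Hamp, 16.6% occur in another gene, most often Hamp2. The group estimate for Hamp2 was 1.11 on the log2 scale (SE 1.20; limma adjusted p 0.816).

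The genes differed widely in how far mice of the same group spread. The SD of log2 CPM within groups, scaled by TMM, was 1.90 for Hamp, 1.10 for Saa2, 0.995 for Saa1, 0.939 for Saa3 and 0.558 for Lcn2. Among all tested genes, these lie at the 99.9th, 99.4th, 99.2nd, 99.1st and 95.3rd percentiles, where the median SD was 0.178. Orm2 was at 0.279 (75.0th percentile). Itih4 (0.189), Saa4 (0.187) and Hpx (0.182) were near the median of all genes, and Hp (0.147) was below it. Across all 8 livers the highest CPM was 35.7 times the lowest for Hamp, 8.83 times for Saa3, 6.42 for Saa2, 4.64 for Saa1 and 2.90 for Lcn2. For Orm2, Saa4, Hpx, Itih4 and Hp it was 1.95, 1.54, 1.46, 1.43 and 1.24 times. The spread is described and not tested, and high and low mice occurred in both groups.

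**Figure D3:**
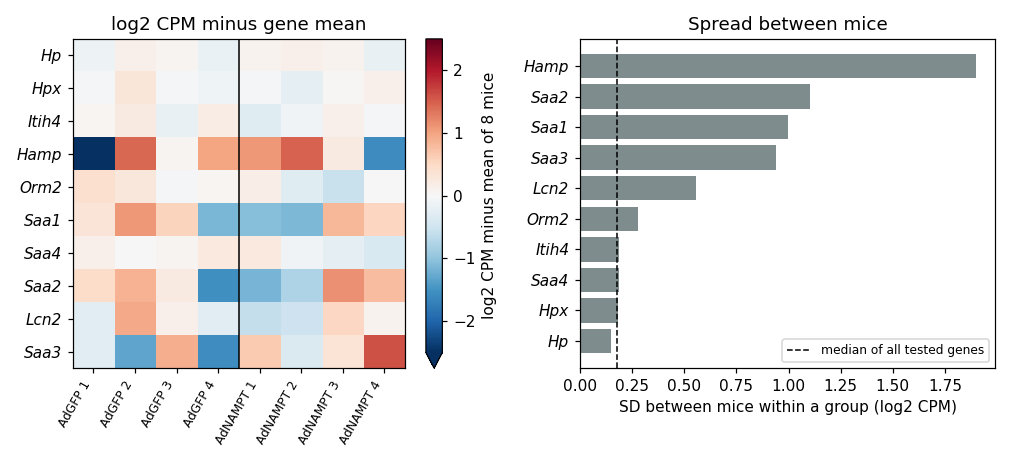
Left, log2 CPM of each gene minus its mean over the 8 livers, with a line between AdGFP and AdNAMPT (the colour scale is truncated, and AdGFP replicate 1 for Hamp lies beyond it). Right, SD between mice within a group, on TMM-scaled log2 CPM, with a dashed line at the median of all tested genes (0.178); Hamp, Saa2, Saa1, Saa3 and Lcn2 exceed it by the widest margins of the 10.

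How the genes moved together over the 8 livers was examined for all 45 pairs, of which 28 had a positive and 17 a negative Pearson r. After Benjamini-Hochberg adjustment over the 45 pairs, 1 pair passed, Saa1 with Lcn2 (exact permutation of the livers, adjusted p 0.0223 on Pearson and 0.0179 on Spearman). Saa1 with Saa2 was next on Pearson (exact permutation, adjusted p 0.0603), although its Pearson r was the highest of the 45 pairs. The order of these p values is therefore not an order of strength. No pooled coefficient is given for Saa1, because its levels fell into 3 low and 5 high livers with none between. Neither set reaches 6 mice, the least taken here for a correlation. The permutation p values above rest on the same 8 livers pooled and carry this limit. The 3 low livers held the 3 lowest Saa2 levels and the 3 lowest Lcn2 levels. Among the 5 high livers, which come from both groups, Saa1 and Lcn2 CPM had the same order.

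**Figure D4:**
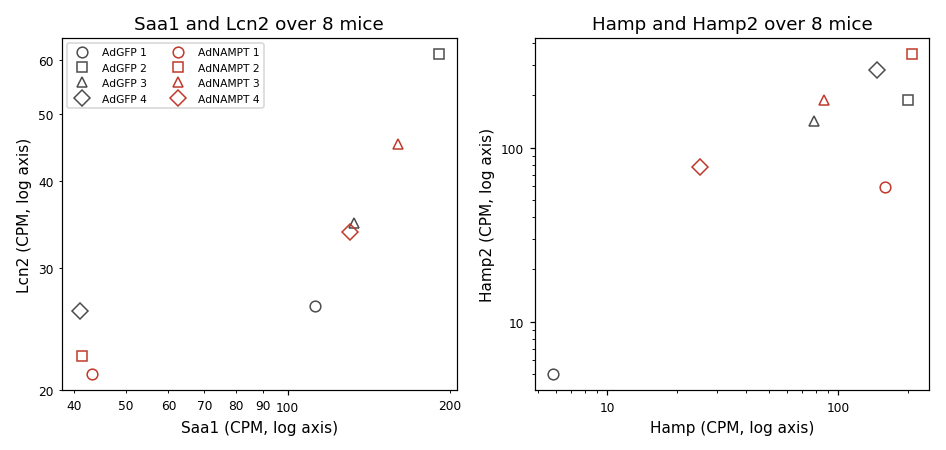
Left, Saa1 against Lcn2 and right, Hamp against Hamp2, in CPM on log axes, 1 point per liver (grey AdGFP, red AdNAMPT, shape for the replicate number). Saa1 shows 3 livers between 41.1 and 43.3 CPM and 5 from 112 CPM upward, and AdGFP replicate 1 is lowest for both hepcidin genes.

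Genes outside the 10 whose pattern over the 8 livers was most like that of a member were named by Pearson r on TMM-scaled log2 CPM, as a description with no test. For Hp these were Slc17a8 (r 0.959), Otulinl (r 0.948) and Actr2 (r 0.943). For Lcn2 they were Atf1 (r 0.959), Cd48 (r 0.957) and Acbd3 (r 0.948). For Hamp they were Tmem203 (r 0.968), Tmem177 (r 0.940) and Smim8 (r 0.917), which came to 0.745, 0.708 and 0.495 without the 2 livers farthest from the Hamp median. For Saa1, Clec4a3, Pkib and Alkbh3 ranked highest, and no coefficient is given for the reason above.

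Among 25 other positive acute phase genes, 8 had higher and 17 lower estimates in AdNAMPT, with a median log2 fold change of -0.09, and none passed the adjusted threshold in limma. At an unadjusted p under 0.05, which 5.04% of all tested genes reached as lower, there were 3, all lower. They were Crp, the pentraxin C-reactive protein (log2 fold change -0.41, SE 0.10, adjusted p 0.211), Serpina1e, an alpha-1-antitrypsin paralog (-1.41, SE 0.57, adjusted p 0.487), and C3, the central complement component (-0.22, SE 0.10, adjusted p 0.511). Serpina1e means were nearly equal, 29.6 ± 17.6 and 28.6 ± 38.3 CPM, and its highest liver, at 85.7 CPM, was AdNAMPT replicate 1, which had the lowest sample weight. edgeR's quasi-likelihood test gave 1 gene of this list an unadjusted p under 0.05, in place of 3. For Crp, mean levels were 445 ± 53.6 and 359 ± 28.5 CPM. The groups did not overlap for Crp, 1 of the 25, beside 4.79% of all tested genes. The DESeq2 Wald test called Crp alone on this list (adjusted p 0.0330), beside 0.611% of all tested genes. Of 12 negative acute phase genes, which hepatocytes make less of in inflammation, 5 were higher and 7 lower (median -0.06). Again none was called, and 4 were under 0.05 unadjusted, all lower, beside 5.04% of all tested genes lower. On TMM-scaled log2 CPM the groups did not overlap for 2 of the 12, Itih1 and Rbp4, beside 4.79% of all tested genes. Itih1 (-0.28, adjusted p 0.331), the fetuin gene Ahsg (-0.44, adjusted p 0.357) and the retinol carrier Rbp4 (-0.44, adjusted p 0.425) had the smallest p. Estimates below 0 occurred in both lists, beside 6080 of the 12270 tested genes, and what lies behind them was not tested.

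Of 16 cytokine and receptor genes that feed the response, 10 passed the filter on low counts. Il6 had a read in 1 of 8 libraries and Il22 in none, below the 3 counts (0.151 to 0.250 CPM) taken as the floor. None of the 10 tested genes was called by limma, and 4 were higher and 6 lower (median -0.05). At an unadjusted p under 0.05, which 9.69% of all tested genes reached, there were 2. They were Il6ra, the interleukin 6 receptor (-0.41, SE 0.14, adjusted p 0.419), and Il1a (0.35, SE 0.16, adjusted p 0.507). Lifr, the leukaemia inhibitory factor receptor, followed (-0.37, adjusted p 0.522).

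Of 20 signalling and transcription factor genes 19 were tested, 10 higher and 9 lower (median 0.02). None was called and 4 were under 0.05 unadjusted, beside 9.69% of all tested genes. Stat3, the factor that interleukin 6 activates, had an estimate of -0.21 (SE 0.07, adjusted p 0.392) and the NF-kB inhibitor Nfkbia of -0.27 (SE 0.11, adjusted p 0.492). Of 20 genes that control hepcidin 19 were tested, 11 higher and 8 lower (median 0.05). None was called and 1 was under 0.05 unadjusted, beside 9.69% of all tested genes. It was the BMP co-receptor Hjv, Hfe2 in the annotation (0.23, SE 0.09, adjusted p 0.465). The BMP and SMAD targets Smad6 (0.37, SE 0.17, adjusted p 0.527) and Id1 (0.70, SE 0.36, adjusted p 0.577) came next.

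Downstream of haptoglobin and hemopexin, 11 of 13 genes of ligand clearance and iron handling were tested, 5 higher and 6 lower (median -0.04). None was called and 3 were under 0.05 unadjusted, beside 9.69% of all tested genes. Cd163, the macrophage receptor for haptoglobin bound to haemoglobin, had an estimate of -1.32 (SE 0.32, adjusted p 0.224), with means of 20.4 ± 4.35 CPM in AdGFP and 11.0 ± 5.65 CPM in AdNAMPT. Blvra, biliverdin reductase, had -0.32 (adjusted p 0.382) and the ferritin light chain Ftl1 0.22 (adjusted p 0.426). The Kupffer and macrophage markers, of which 11 of 12 were tested, had 1 higher and 10 lower estimates (median -0.30). None was called and 3 were under 0.05 unadjusted, beside 9.69% of all tested genes in either direction and 5.04% lower. They were Vsig4 (-0.51, adjusted p 0.211), Timd4 (-0.83, adjusted p 0.326) and Clec4f (-0.45, adjusted p 0.453). The DESeq2 Wald test called Vsig4 (adjusted p 0.0393), beside 0.611% of all tested genes. Whether macrophage content has a part in the Cd163 values was not tested.

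Of the 10 hepatocyte markers 2 were higher and 8 lower (median -0.17), close to the median of the 10 acute phase genes. None was called and 2 were under 0.05 unadjusted, beside 9.69% of all tested genes. They were Tat (-0.56, adjusted p 0.318) and Pck1 (-0.49, adjusted p 0.425), and Cps1 came next (-0.27, adjusted p 0.577). The hepatocyte markers Alb, Apoa1 and Ttr are also on the negative acute phase list. Only 2 of 12 neutrophil markers were tested, S100a9 (0.56, adjusted p 0.648) and S100a8 (0.39, adjusted p 0.706). Of 8 adipocyte markers 4 were tested, 3 higher and 1 lower (median 0.54). They included Fabp4 at -0.29 (adjusted p 0.636), Retn at 0.89 (adjusted p 0.709) and Cidea at 1.39 (adjusted p 0.733). Cidea itself, and Adipoq, Lep, Plin1 and Cfd, were at 0 in at least 1 library. None of 8 T cell markers passed the filter, and their sum was at 2.19 to 3.11 CPM in AdGFP and 2.67 to 5.36 CPM in AdNAMPT. Over these lists together, 120 genes were tested. limma called 0 of them, with 22 unadjusted (18.3%, beside 9.69% of all tested genes). edgeR's quasi-likelihood test called 0, with 19 unadjusted (15.8%, beside 8%). The DESeq2 Wald test called 2, Crp and Vsig4 (1.67%, beside 0.611% of all tested genes), with 20 unadjusted (16.7%, beside 6.85%). The groups did not overlap, on TMM-scaled log2 CPM, for 3 of 19 signalling, 2 of 11 clearance and 2 of 11 macrophage genes. The same held for 1 of 10 cytokine genes and for none of the hepcidin control, hepatocyte, neutrophil and adipocyte lists, beside 4.79% of all tested genes. These lists were chosen with results known, and the shares are a description.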

How the data were processed

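The authors sequenced 50-base single reads, aligned them with STAR (2.4.0b in the submitters' processing notes) to GRCm38 and deposited whole-number counts per gene from featureCounts (1.4.5), with 1 file per mouse. The deposited CPM are counts scaled to the library total, and the deposited RPKM are those CPM per kilobase of exon; recomputation from the counts gave the same values. Labels name a ribosomal RNA depletion kit and the methods poly-A selection. Strand use in counting was not stated. Symbols came from GENCODE M21 (40340 of 41388 features matched), and coordinates are those of the files.

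After the study's methods, 355 ribosomal RNA features and genes not above 1 CPM in at least 3 libraries were left out, leaving 12270. Counts scaled by TMM were fitted by limma voomWithQualityWeights with group as the only term, and an adjusted p (Benjamini-Hochberg) of at most 0.05 was taken as a call. Log2 fold changes are AdNAMPT over AdGFP, and intervals without a label are 95% confidence intervals. The main limma fit, edgeR's quasi-likelihood test and the DESeq2 Wald test were tried on simulated counts, and the other settings were not. Named genes are the 10 members, the 3 genes with the smallest p in each other list and the 3 genes most like Saa1, Hp, Lcn2 and Hamp; others were added after their values were seen, and 1 gene that the rule names is not reported here. Members and lists were chosen with earlier results of these data known. Pairs of members used exact permutation of the livers (40320 orders). The alternatives were edgeR, DESeq2, no sample weights, DESeq2 size factors, library size alone, no filter, a mean count of at least 10, the replicate number as a block, each library left out and an exact permutation of the 70 group assignments; library size and Spearman for the pairs were chosen after seeing the data. Fits used limma 3.58.1, DESeq2 1.42.0 and edgeR 4.0.16 under R 4.3.3, while matplotlib 3.10.9, scipy 1.17.1, numpy 2.4.6 and pandas 2.3.3 ran under Python 3.11.15.

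The deposited totals of 12006713 to 19879814 counts put 3 counts, taken as the floor, at 0.151 to 0.250 CPM; this covers counting error only. Mice of a group are separate animals by their titles. AdNAMPT replicate 1 had the lowest sample weight, 0.440.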

Additional observations from a re-analysis of the deposited data

Results flagged for a closer look

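Of 20 groups of 4 mice examined (10 genes in each of AdGFP and AdNAMPT), 1 held a liver far from the others of its group, about the number that chance gives. For Hp, AdNAMPT replicate 4 was at 2883.9 CPM while the nearest other AdNAMPT liver was at 3466.48 CPM, a gap of 0.860 of the range of that group.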

How the results depend on the processing

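No gene of the 10 was called under any of 16 other settings, with the lowest adjusted p, 0.0823 for Saa4, without AdNAMPT replicate 1. Saa4, Orm2, Itih4, Hpx and Saa3 kept their direction in each setting run, between -0.46 and -0.28, -0.56 and -0.39, -0.30 and -0.11, -0.25 and -0.06, and 0.29 and 1.35 on the log2 scale. The other 5 turned in at least 1 setting. Saa2 turned from 0.10 to -0.029 with edgeR, -0.038 with DESeq2, -0.064 without sample weights and -0.034 with no filter. The unweighted difference of its group means on TMM-scaled log2 CPM, used in the permutation, was -0.11. Hp turned from -0.02 to 0.076 with library size alone, a scaling that put the median of all genes at 0.09. Leaving out each library in turn gave -0.97 to 0.27 for Saa1, -0.49 to 0.71 for Saa2, -0.074 to 0.057 for Hp, -0.52 to 0.093 for Lcn2 and -0.52 to 1.54 for Hamp. Saa1 and Lcn2 turned, to 0.27 and 0.093, without AdNAMPT replicate 2; the cause was not tested.

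Over all genes, 34 were called (2 higher, 32 lower), 75 with DESeq2, 40 with library size alone (9 higher, 31 lower) and 28 to 38 with each library left out. With library size alone 2 of the 45 pairs passed in place of 1. Deviations of mice with the same number had correlations of 0.225, -0.05, 0.213 and 0.0052, so the numbers were not taken to pair them; with the replicate block 41 genes and none of the 10 were called, and Hamp turned to -0.091.

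With 4 mice per group, intervals of Hamp, Saa1, Saa2 and Saa3 are wide, and those of Hp, Hpx and Itih4 far narrower. Saa3 had the fewest reads, 18 in its lowest library, against 85 or more in every library for each of the other 9.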

Other observations

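The order of livers for Saa4 differed from that for Saa1. AdGFP replicate 4 had the highest Saa4 level of the 8 (257 CPM) and the lowest Saa1 level (41.1 CPM). In AdNAMPT the highest Saa4 level was in replicate 1 (255 CPM), where Saa1 was at 43.3 CPM, and Saa4 was at 184 and 167 CPM in replicates 3 and 4, where Saa1 was at 161 and 130.3 CPM. AdNAMPT replicate 2 had Saa4 at 203 CPM and Saa1 at 41.5 CPM. Over the 8 livers neither Saa4 with Saa1 (adjusted p 0.860, exact permutation of Pearson r, adjusted over the 45 pairs) nor Saa4 with Saa2 (adjusted p 0.544, the same test) passed. Both tests pool the low and high livers of Saa1 and Saa2 and carry the limit given above. These livers were picked out after their values were seen.

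Fgl1, a hepatocyte protein that acute inflammation raises, was highest in AdGFP replicate 2 (427 CPM), the liver highest for Saa1 and Lcn2, and second highest in AdNAMPT replicate 3 (322 CPM), second for both. The other 6 livers lay between 136 and 230.5 CPM. Lrg1, a leucine-rich glycoprotein of the same response, was highest in AdNAMPT replicate 3 (282 CPM), but AdNAMPT replicate 1, low for Saa1, came next at 233 CPM. Both genes were picked after their values were seen.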
